A study of Mus musculus with 4 samples.

Results

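Toll-like receptors sense microbial products and nucleic acids, and 9 of them, Tlr1 to Tlr9, were followed together with Unc93b1, the chaperone of the nucleic acid-sensing receptors. Genes were taken by their name on the array, and all 10 were present, through 13 probes. Of the 10, 8 had a probe well above background on each array of the control group, the EnhDel group or both, and were tested, among 19394 tested genes in all. Tlr3 and Tlr8 were not well above background on any array.

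The cells were preproB cells, which stand at the start of the B lineage, from C57BL/6 mouse bone marrow, sorted for B220 and CD43 in the absence of lineage markers, BP1 and CD24. In both groups the Cebpa enhancer at +37 kb was floxed, and all mice had received pIpC, a double-stranded RNA made in the laboratory, in 3 doses, ending 5 weeks before the cells were collected. The control group (n = 2) carried no Cre, and the enhancer-deleted group, called EnhDel as in the labels (n = 2), also carried Mx1-Cre, in which an interferon-inducible promoter drives the recombinase in many cell types and not in B-lineage cells alone. By label, control replicate 1 came from a 26-week-old female and all others from males aged 24 weeks, and each sample was read on 1 single-colour array. The labels do not say whether a sample came from 1 animal or from a pool, so p-values cover only the scatter among these samples, which may be technical.

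Toll-like receptors fall into groups by where they work. Tlr1, Tlr2, Tlr4, Tlr5 and Tlr6 sit at the cell surface and recognise bacterial lipoproteins, lipopolysaccharide and flagellin, whereas Tlr3, Tlr7, Tlr8 and Tlr9 act in endosomes on double-stranded RNA, single-stranded RNA and unmethylated CpG DNA. Unc93b1 carries the endosomal receptors from the endoplasmic reticulum to the endosome, where proteases cut their ectodomains. B-lineage cells and plasmacytoid dendritic cells are known for Tlr7 and Tlr9, and pIpC itself is a ligand of Tlr3.

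The probes define what was measured, and their first 30 of 60 bases are shown for the genes that the results turn on. Tlr7 had 3 probes, on the minus strand of the X chromosome in build mm9. The probe of highest signal lay at chrX:163742863-163742922, another at chrX:163743146-163743205, and the third at chrX:163747214-163747273. The Tlr9 probe lay at chr9:106128979-106129038 on the plus strand, the Tlr1 probe at chr5:65316115-65316174 on the minus strand, and the Unc93b1 probe at chr19:3949081-3949140 on the plus strand. Exon and UTR positions were not worked out for this build.
Tlr7 probe A_55_P2050932: tctctctctctgatactgaactgtaccaga
Tlr7 probe A_55_P2129047: cataaatgaaggtctgaatttttcctaaca
Tlr7 probe A_55_P2129046: atgtaatgctgcttctgtatcttaaaaact
Tlr9 probe A_51_P432563: ctggttcccgagttgctctgcctgccttgc
Tlr1 probe A_51_P495581: caagcatggacttttttgggcaaacctaag
Unc93b1 probe A_52_P507382: agcctggggtcacctggaacttcctccaag

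The remaining members each had 1 probe, except Tlr8 with 2. In mm9 these lay at chr3:83640344-83640403 on the minus strand for Tlr2, chr4:66503470-66503529 on the plus strand for Tlr4, chr1:184906031-184906090 on the plus strand for Tlr5 and chr5:65344365-65344424 on the minus strand for Tlr6. The Tlr3 probe lay at chr8:46481729-46481788, and the Tlr8 probes at chrX:163683356-163683415 and chrX:163680626-163680685, all on the minus strand.

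Between 23486 and 24223 probes were well above background on the control arrays and between 24594 and 25575 on the EnhDel arrays, out of 39429, and no spot was saturated. The lowest signal well above background was 12.2 to 14.4 on the 4 arrays. Cebpa, whose enhancer was targeted, gave signals of 1271 and 927.1 in the controls and 125.1 and 286.7 in EnhDel, a log2 difference of -2.41 ± 0.44 (SE, n = 2 per group, limma adjusted p = 0.238). The groups did not overlap for Cebpa, in the direction that the labels give. With 1 array left out the Cebpa difference ran from -2.95 to -1.87, and it passed the threshold only without EnhDel replicate 1 (limma adjusted p = 0.0433), a fit in which 2938 genes passed. Its adjusted p was 0.568, 0.346 and 0.0818 without control replicate 1, control replicate 2 and EnhDel replicate 2. All 12 plasmacytoid dendritic cell markers were well above background on all 4 arrays, with summed levels of 1153 to 1272 in controls and 1158 to 1272 in EnhDel, in multiples of the array's 75th percentile. Of 12 preproB and early B-cell markers, 10 were well above background on all 4 arrays, and Pax5 was so on 1 control array alone. The list summed to 98.7 and 100.5 in controls and 93.3 and 71.5 in EnhDel. The median of its 11 tested differences was -1.02, beside 0.07 for all genes. The groups lay apart with EnhDel lower in 8 of the 11 and higher in 1, beside 15.5% and 28.6% of all genes. Rag2, among these 8, was well above background on only 1 EnhDel array. None of the 11 passed the threshold on the adjusted p in limma. Xist, the X-inactivation RNA of female cells, was well above background on EnhDel replicate 2 alone (signals of 4.95, 3.99, 5.32 and 597.3 in the order control 1, control 2, EnhDel 1, EnhDel 2). The Y-linked Ddx3y gave 3116, 3474, 3624 and 1560 in the same order and Eif2s3y gave 4917, 6840, 5561 and 2635, so Y-linked RNA was well above background on all 4 arrays and lowest on EnhDel replicate 2. The female label of control replicate 1 was thus not borne out, and EnhDel replicate 2, labelled male, held both Xist and Y-linked RNA. Since Tlr7 and Tlr8 lie on the X chromosome, Tlr7 is given with and without that array.

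None of the 8 tested members passed the threshold of 0.05 on the adjusted p in limma, and neither did any of the 19394 genes (0%), of which 2171 had an unadjusted p under 0.05. With EnhDel replicate 1 left out, 2938 genes passed and still no member. At an unadjusted p under 0.05, 2 members, Tlr1 and Tlr7, were higher in EnhDel, against 7.23% of all genes higher at that level, and no member was lower, against 3.96%. Neither kept this level under all scalings: the unadjusted limma p was 0.0630 with quantile normalization, 0.168 with median scaling and 0.0608 with cyclic loess for Tlr7, and 0.0646, 0.0687 and 0.101 for Tlr1. No member differed by 2-fold or more at that level, against 4.34% of all genes. Tlr7 and Tlr9 of the endosomal class and Tlr1 of the surface class were higher on both EnhDel arrays than on both control arrays, Tlr5 was lower, and for the other 4 members the groups overlapped. Over all genes, the groups lay apart in 28.6% with EnhDel higher and in 15.5% with EnhDel lower, so 3 and 1 of 8 members are shares of the same order as the background. With median scaling, which put the median of all genes at -0.13, the shares over all genes became 13.1% and 35%, and of the members Tlr7 and Tlr1 lay higher, Tlr5 and Tlr2 lower, and Tlr9 overlapped. The 8 log2 differences had a median of 0.24 beside 0.07 for all genes, with 6 of 8 above 0 beside 59.8% of all genes. Adjusted p-values of the members ran from 0.393 to 0.952. Fewer cells of a type and less RNA per cell cannot be told apart in these bulk samples.

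**Figure D1:**
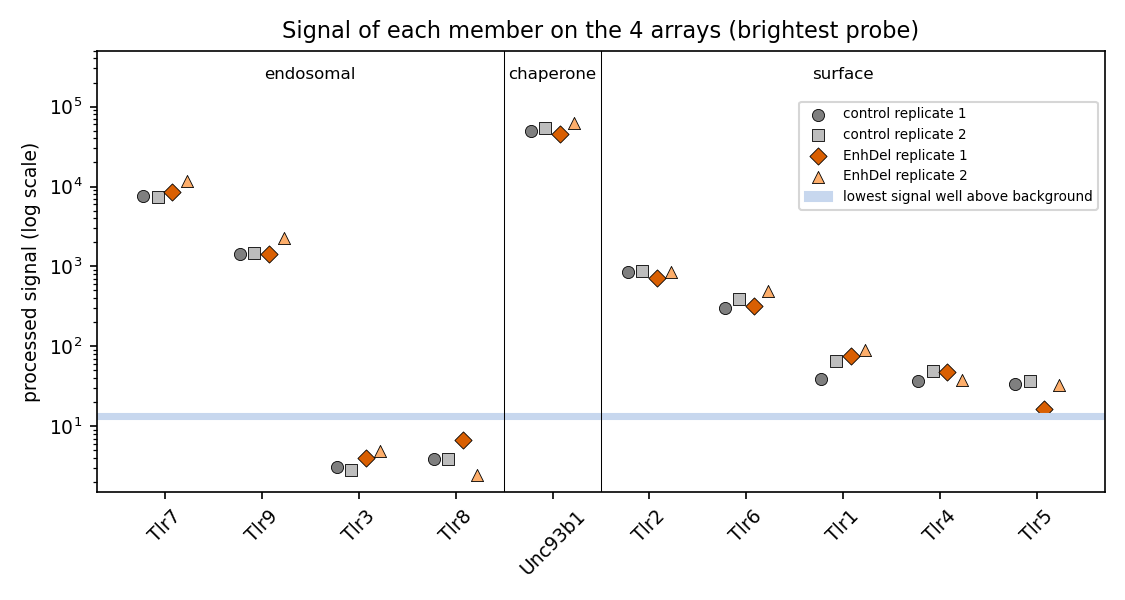
Processed signal (log axis, arbitrary scanner units, not scaled between arrays) of the highest-signal probe of each of the 10 genes on the 4 arrays, with the range of the lowest signal well above background as a band. Tlr3 and Tlr8 lie below the band on all 4 arrays, Tlr5 on EnhDel replicate 1 (16.4) lies just above it, and signals of different genes come from different probes and are not comparable as levels.

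Among the endosomal receptors, Tlr7, the sensor of single-stranded RNA, had signals of 7531 and 7450 in the controls and 8522 and 11660 in EnhDel. Both EnhDel arrays were above both controls, with EnhDel replicate 2 the highest. As log2 levels relative to the array's 75th percentile, the scale used for all differences, Tlr7 stood at 2.89 ± 0.12 in controls and 3.41 ± 0.24 in EnhDel (mean ± SD, n = 2 each). The difference was 0.52 ± 0.19 (SE), a 1.44-fold higher level (95% interval 1.001 to 2.06), with an unadjusted p of 0.0496 and an adjusted p of 0.445 in limma. Against the control mean, EnhDel replicate 1 was 0.35 higher and EnhDel replicate 2 was 0.69 higher. The first of these values is also the Tlr7 difference with EnhDel replicate 2, the array with Xist, left out. Whether the mixture of Xist and Y-linked RNA on that array bears on the Tlr7 difference was not tested.

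The 3 Tlr7 probes gave the same direction on every EnhDel array, although they read 1 set of 4 RNA samples and are not replicates. The probe A_55_P2129047 had signals of 6872 and 7618 in controls and 8300 and 11120 in EnhDel, a difference of 0.52 ± 0.18 (limma adjusted p = 0.425 with every probe fitted on its own). The dim probe A_55_P2129046, which the array assigns to a separate Tlr7 transcript, had signals of 42.1 and 46.9 in controls and 69.7 and 77.6 in EnhDel. Its difference was 0.84 ± 0.15 (unadjusted p = 0.00326, adjusted p = 0.228). On this probe the EnhDel arrays lay close to each other, and on the other probes EnhDel replicate 2 was above EnhDel replicate 1.

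**Figure D2:**
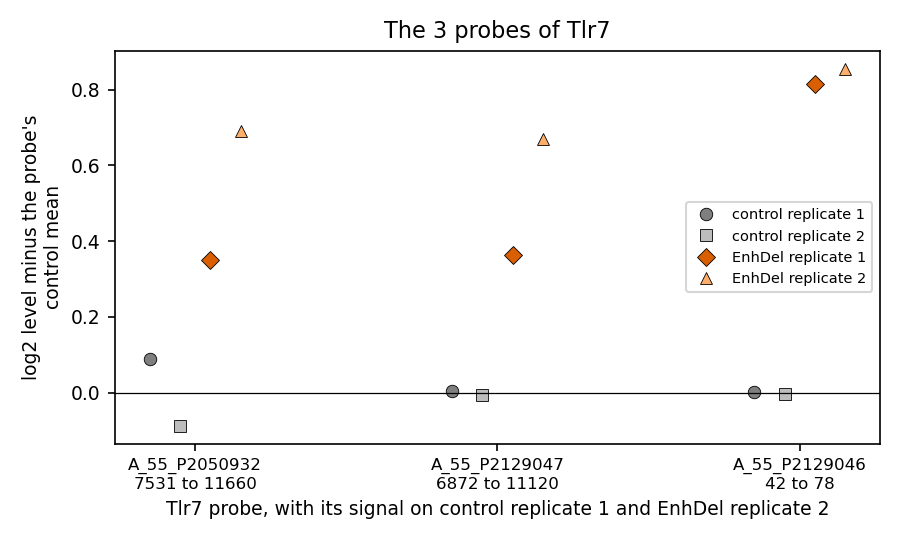
Log2 level of each Tlr7 probe (horizontal axis, with its signal on control replicate 1 and EnhDel replicate 2) minus that probe's own control mean (vertical axis), 1 point per array. On all 3 probes both EnhDel points lie above both control points, and the dim probe shows the widest distance between the groups, 0.84.

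Tlr9, the CpG DNA sensor, had signals of 1420 and 1458 in the controls and 1428 and 2266 in EnhDel. On the log2 scale its levels were 0.57 and 0.44 in controls and 0.66 and 1.21 in EnhDel, so the groups did not overlap, but EnhDel replicate 1 lay only 0.09 above the nearer control. The difference of 0.43 ± 0.24 (SE, n = 2 per group) was not called (limma unadjusted p = 0.140, adjusted p = 0.578). It rested mainly on EnhDel replicate 2, which was 0.71 above the control mean, against 0.15 for EnhDel replicate 1.

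Tlr3, the sensor of double-stranded RNA, had signals of 3.13, 2.80, 4.02 and 4.85 on control 1, control 2, EnhDel 1 and EnhDel 2. All 4 lay under the lowest signals well above background, so the gene has only an upper bound in both groups and no fold is given. Tlr8, the other single-stranded RNA receptor, gave 3.88, 3.86, 6.66 and 2.45 on its brighter probe and 3.12, 2.79, 2.61 and 2.65 on the other, also not well above background on any array. In the authors' deposited table, on a log2 scale, Tlr3 stood at 5.5, 5.5, 5.6 and 5.5 and Tlr8 at 5.4, 5.5, 5.6 and 5.5. No difference between the groups was detectable for Tlr3 or Tlr8 on these arrays.

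Unc93b1, which delivers the endosomal receptors, had signals of 49470 and 53760 in controls and 45480 and 61520 in EnhDel. The groups overlapped, with log2 levels of 5.69 and 5.65 in controls and 5.65 and 5.97 in EnhDel. The difference was 0.14 ± 0.18 (95% interval -0.34 to 0.63, limma adjusted p = 0.805), and it turned to -0.059 with median scaling. That interval bounds the difference only loosely and includes the values of Tlr7 and Tlr9.

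Among the surface receptors, Tlr2 is the shared partner in heterodimers with Tlr1, for triacylated lipoproteins, and with Tlr6, for diacylated ones. Tlr2 had signals of 840.1 and 882.2 in controls and 715.4 and 853.9 in EnhDel, and on the log2 scale the groups overlapped (-0.03 ± 0.15, limma adjusted p = 0.952). Its probe was printed in 10 spots, of which 7 to 9 per array were used, and these spots had an SD of 0.02 to 0.07 on the log2 scale within an array. Between samples the SD of the Tlr2 level was 0.06 in controls and 0.10 in EnhDel (n = 2 each).

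Tlr1 had signals of 38.9 and 66.1 in controls and 75.9 and 89.7 in EnhDel. Both EnhDel arrays were above both controls, by 0.75 and 0.87 against the control mean, and the controls lay further apart (SD 0.43) than the EnhDel arrays (SD 0.09). The difference of 0.81 ± 0.25, a 1.75-fold higher level (95% interval 1.09 to 2.82), was the largest of the 8 in size and was not called (limma unadjusted p = 0.0294, adjusted p = 0.393). With the authors' deposited values, where Tlr1 stood at 6.5 and 6.9 in controls and 7.1 and 7 in EnhDel, the difference was 0.35. Tlr6, encoded beside Tlr1 on chromosome 5, had signals of 299.9 and 386.3 in controls and 316.2 and 499.6 in EnhDel. Its groups overlapped, with EnhDel replicate 1 0.06 and EnhDel replicate 2 0.60 above the control mean (0.33 ± 0.24, limma adjusted p = 0.672).

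Tlr4, the lipopolysaccharide receptor, had signals of 36.9 and 48.9 in controls and 47.9 and 37.9 in EnhDel. The groups overlapped, and the difference of 0.11 ± 0.23 (limma adjusted p = 0.878) turned to -0.12 with quantile normalization, -0.09 with median scaling and -0.20 with cyclic loess. Tlr5, the flagellin receptor, had signals of 34.3 and 37.0 in controls and 16.4 and 32.5 in EnhDel. Both EnhDel arrays were lower than both controls, by 0.96 for the first EnhDel array and 0.08 for the second. The mean difference of -0.52 ± 0.33 was not called (limma adjusted p = 0.623), and the low value lay near the limit of detection.

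**Figure D3:**
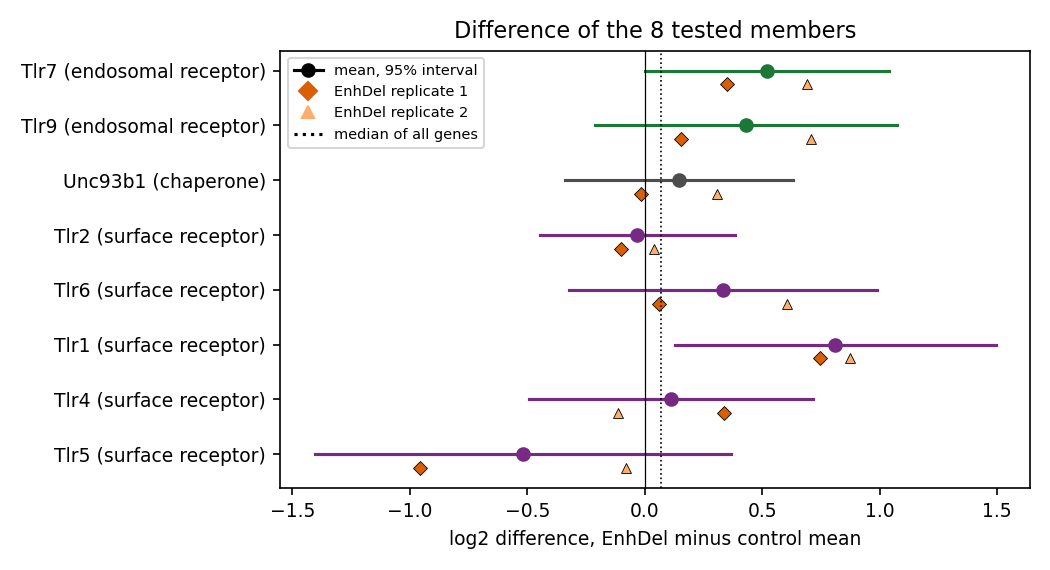
Log2 difference of the 8 tested genes, EnhDel minus control (horizontal axis), with the limma 95% interval (line), the mean (circle), and each EnhDel array against the control mean (small symbols), beside the median of all genes (dotted). The intervals of Tlr7 and Tlr1 lie above 0, those of the other 6 include it, and EnhDel replicate 2 lies to the right of EnhDel replicate 1 for every gene but Tlr4, by the widest gap for Tlr5.

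The endosomal and surface classes were set side by side as differences within each probe. The 2 measured endosomal receptors, of 4, had a median difference of 0.48, and the 5 surface receptors had one of 0.11, beside 0.07 for all genes. The medians of the classes differed by 0.36, or by 0.19 when EnhDel replicate 1 alone was set against the controls and by 0.66 for EnhDel replicate 2. Between replicates the SD of that difference was 0.29. With n = 2 per group an exact permutation test could not go below p = 0.333, and the difference between the classes was not tested.

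On each array, the mean deviation of Tlr7 and Tlr9 from their averages over the 4 arrays was -0.16 and -0.31 on the controls and 0.02 and 0.46 on EnhDel. For the surface receptors it was -0.16 and 0.02 on the controls and -0.05 and 0.19 on EnhDel. Both classes were highest on EnhDel replicate 2. The endosomal mean minus the surface mean was -0.0009 and -0.33 on the controls and 0.07 and 0.27 on EnhDel. Control replicate 1 and EnhDel replicate 1 lay close together in this contrast of means, which was not tested. Within the surface class the single differences ran from -0.52 for Tlr5 to 0.81 for Tlr1, a range that holds both endosomal values.

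**Figure D4:**
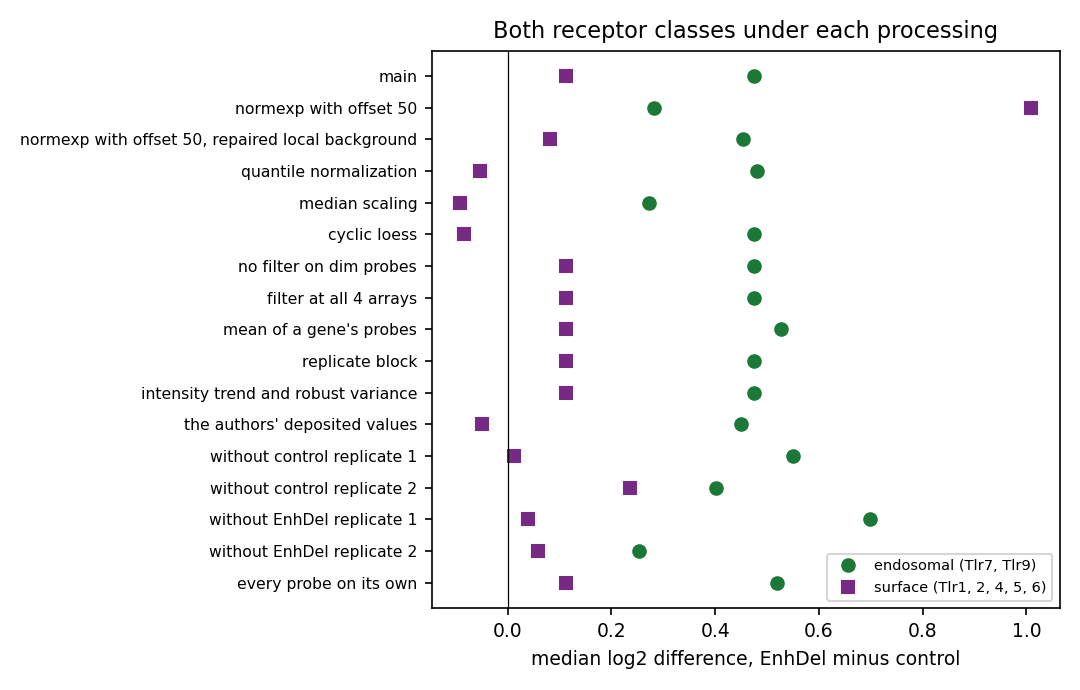
Median log2 difference, EnhDel minus control, of the measured endosomal receptors (Tlr7 and Tlr9) and the 5 surface receptors under each way of processing or with 1 array left out (with no filter, Tlr3 and Tlr8 enter the endosomal median as well). The endosomal median stays between 0.25 and 0.70, the surface median moves between -0.09 and 1.01, and the surface median exceeds the endosomal one only with normexp without repair of the local background.

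The levels of Tlr7, Tlr9, Tlr1, Tlr6 and Unc93b1 were highest on EnhDel replicate 2, and so was that of each of the 14 interferon-stimulated genes listed. All 14 were well above background on all 4 arrays, and their summed level was 41.2 and 52.0 in controls and 63.5 and 92.8 in EnhDel. Their median difference was 1.12, and it was 0.51 for EnhDel replicate 1 against 1.64 for EnhDel replicate 2. The groups lay apart with EnhDel higher in 13 of 14, beside 28.6% of all genes. With median scaling the share over all genes was 13.1%, and the 14 were not counted on that scale. The part of the interferon-stimulated genes in the receptor differences was not tested. The plasmacytoid dendritic cell markers had a median difference of 0.04, with 0 of 12 at an unadjusted p under 0.05 in limma, beside 11.2% of all genes. Siglech, a defining marker of those cells, gave signals of 169900 and 177700 in controls and 164100 and 169900 in EnhDel. The 12 differences ran from -0.26 for Cox6a2 to 0.76 for Klk1. The groups lay apart in 3 of the 12, each with EnhDel higher, beside 28.6% of all genes. Klk1, 1 of the 3, gave signals of 28050 and 32810 in controls and 31350 and 72280 in EnhDel.

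Markers of other cell types that carry these receptors were summed in the same way, and the monocyte and neutrophil sums were lower on both EnhDel arrays. The 11 measured monocyte and macrophage markers, of which 7 were well above background on all 4 arrays, had sums of 22.6 and 19.4 in controls and 8.02 and 9.13 in EnhDel. Neutrophil markers had sums of 20.2 and 24.2 in controls and 1.21 and 11.1 in EnhDel. Of these 12, 7 were well above background on all 4 arrays and Ltf, Ngp, Mmp8 and Retnlg on none. Of the 8 tested, the groups lay apart with EnhDel lower in 6, beside 15.5% of all genes. S100a8, among these 6, was well above background on only 1 EnhDel array. The other 2, Camp (0.35) and Lcn2 (0.83), lay apart with EnhDel higher. For classical dendritic cells the sums were 53.2 and 48.3 in controls and 50.8 and 67.1 in EnhDel, with 4 of 6 markers on all 4 arrays and Xcr1 on none. T and NK cell markers, 6 of 8 on all 4 arrays, had sums of 19.3 and 17.0 in controls and 19.4 and 13.6 in EnhDel, but the median of their 7 tested differences was 0.51. The CD3 chains of the T-cell receptor complex were higher on both EnhDel arrays than on both controls, as were 28.6% of all genes. With median scaling that share was 13.1%, and the CD3 chains were not compared on that scale. For the other 4 tested markers the groups overlapped, with differences of -0.49 for Lck, -0.57 for Klrb1c, -0.18 for Klrd1 and 0.87 for Gzma. Cd3d differed by 1.17 ± 0.32 (limma adjusted p = 0.354), Cd3g by 1.06 ± 0.14 (adjusted p = 0.195) and Cd3e by 0.51 ± 0.19 (adjusted p = 0.451), none past the threshold. The part of these cell types in the surface receptor values was not tested.

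Promoter windows from RefSeq (GRCm38.p6, 250 bases before to 50 after each start) matched 7 of the 10 genes, in 9 windows. They were searched on both strands for GAAA followed by any 2 bases and GAAA again, a form of the interferon-stimulated response element, for GAGGAA, a core bound by ETS factors such as PU.1, and for TTGCNNAA, a form of the C/EBP site. Over 32851 promoters, 3.44% held the first, 28.3% the second and 10.8% the third, and of the 9 windows 1, 3 and 3 did. The windows of Tlr9 and Tlr6 are shown because both genes were highest on EnhDel replicate 2 and because these windows hold more than 1 match of a kind. The Tlr9 window, chr9:106222348-106222647 on the plus strand, holds GAGGAA at -112 to -107 and, on the opposite strand, at 13 to 18 (capitals). In the Tlr6 window, chr5:64959117-64959416 on the minus strand, the response element matches on the opposite strand at -116 to -107 and at -110 to -101, and these matches overlap (capitals). Positions count from the start as 1.
Tlr9 promoter: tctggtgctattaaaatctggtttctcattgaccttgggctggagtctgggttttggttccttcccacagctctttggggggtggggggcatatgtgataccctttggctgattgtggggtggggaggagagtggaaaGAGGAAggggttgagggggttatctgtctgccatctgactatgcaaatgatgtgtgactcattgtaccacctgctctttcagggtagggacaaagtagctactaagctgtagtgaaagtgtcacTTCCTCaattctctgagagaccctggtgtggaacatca
Tlr6 promoter: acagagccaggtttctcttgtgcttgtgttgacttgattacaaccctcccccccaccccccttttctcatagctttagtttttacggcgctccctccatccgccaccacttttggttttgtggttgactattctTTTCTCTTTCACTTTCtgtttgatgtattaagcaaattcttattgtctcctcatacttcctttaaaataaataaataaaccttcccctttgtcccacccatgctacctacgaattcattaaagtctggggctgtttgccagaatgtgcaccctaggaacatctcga

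A C/EBP match was present in a window of Tlr3, Tlr6 and Tlr8, and an ETS match in a window of Tlr1, Tlr8 and Tlr9. Tlr2 and Tlr5 had no match to any of the 3 motifs in their windows. These matches are a description of letters and were not tied to the differences.

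The other genes of the pathway were taken from a list of 60, of which 58 were tested. None passed the threshold on the adjusted p (range 0.196 to 0.975 in limma). At an unadjusted p under 0.05, 3 were higher and 4 lower, beside 11.2% of all genes in either direction. Among these, Ctsk on the higher side and Ticam2 and Lbp on the lower side passed the filter only through the group in which they were high. Of the 58, 44 lay above 0, beside 59.8% of all genes, and their median of 0.11 was close to the 0.07 of all genes. With median scaling, 34.4% of all genes lay above 0. The 58 were not counted on that scale, so the 44 cannot be set beside that share. Without EnhDel replicate 1, the differences were -1.24 for Ticam2, -1.35 for Rab7b, -0.80 for Lbp and 1.96 for Irf7.

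Tlr11, Tlr12 and Tlr13, mouse receptors that also use Unc93b1, were listed with the co-receptors, whose 8 tested members of 9 had a median of 0.27. Tlr12 had signals of 24390 and 27150 in controls and 29310 and 31260 in EnhDel (0.34 ± 0.14, limma adjusted p = 0.481), so both EnhDel arrays were above both controls. Tlr13, which senses bacterial ribosomal RNA, overlapped between the groups (0.32 ± 0.25, adjusted p = 0.684 in limma), and Tlr11 was not well above background on any array. Ly96, the partner of Tlr4 in lipopolysaccharide binding, was higher by 0.26 with the groups apart, and Cd14 overlapped at -0.10. Lbp, the lipopolysaccharide-binding protein, had signals of 25.9 and 32.2 in controls and 11.5 and 16.02 in EnhDel, with EnhDel replicate 2 alone well above background in that group. Its fitted log2 difference of -0.98 ± 0.20 (limma adjusted p = 0.268) thus rests in part on a signal that is only an upper bound.

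Factors that fold and move the receptors had a median difference of 0.01 over 8 genes. Hsp90b1 and Cnpy3, the chaperone pair that folds most Toll-like receptors, differed by 0.06 and 0.13, and Slc15a4, an endolysosomal transporter needed for Tlr7 and Tlr9 signalling, by 0.36 with overlapping groups. Rab7b, a GTPase of late endosomes, had signals of 163.5 and 140.2 in controls and 69.6 and 57.4 in EnhDel. Both EnhDel arrays were lower than both controls (-1.15 ± 0.23, limma unadjusted p = 0.00628, adjusted p = 0.272).

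The proteases that process the endosomal receptors had a median of 0.10 over 5 genes. Ctsl had signals of 83860 and 92910 in controls and 106700 and 114400 in EnhDel, a difference of 0.43 ± 0.14 (limma adjusted p = 0.410), while Ctsb and Ctss overlapped at 0.06 and 0.10. Ctsk had signals of 9.29 and 10.9 in controls, not well above background, and 26.4 and 51.7 in EnhDel, at least 2.84-fold higher. This bound sets the EnhDel mean against the lowest signals well above background on the control arrays, and it was not tested. The fitted log2 difference of 1.98 ± 0.32 (limma adjusted p = 0.212) rests on the control signals at background.

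The adaptors had a median of 0.24 over 5 genes. Myd88, which serves all members except Tlr3, was higher by 0.24 ± 0.15 (limma adjusted p = 0.615), with signals of 5620 and 5798 in controls and 5994 and 6535 in EnhDel. Ticam2, the bridge between Tlr4 and Ticam1, had signals of 27.3 and 37.3 in controls and 11.2 and 13.1 in EnhDel. Only EnhDel replicate 2 was well above background in that group, so the fitted difference of -1.29 ± 0.18 (limma adjusted p = 0.196) rests in part on a signal that is only an upper bound. For Ticam2, Lbp and Rab7b the sign turned with normexp without repair of the local background, to 0.93, 0.96 and 0.11.

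Kinases and ubiquitin ligases had a median of 0.12 over 16 genes, none at an unadjusted p under 0.05 in limma. Irak2, a kinase downstream of Myd88, had the smallest p among them, with signals of 4214 and 3942 in controls and 4517 and 4891 in EnhDel (0.31 ± 0.17, limma adjusted p = 0.564). The transcription factors had a median of 0.23 over 8 genes. Irf7, the factor through which Tlr7 and Tlr9 induce type I interferon, had signals of 2245 and 3251 in controls and 3274 and 10130 in EnhDel. EnhDel replicate 2 stood far above the other 3 arrays, and the difference of 1.20 ± 0.55 was not called (limma adjusted p = 0.510). Irf7 is also among the 14 interferon-stimulated genes. Irf5, another interferon regulatory factor of these receptors, was higher by 0.36 ± 0.19 with the groups apart (limma adjusted p = 0.556).

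The inhibitors had a median of 0.10 over 8 tested genes of 9. Socs1, a feedback inhibitor of cytokine and receptor signalling, had signals of 440.1 and 686.7 in controls and 841 and 1128 in EnhDel (0.93 ± 0.24, limma adjusted p = 0.332). Irak3, which blocks signalling below Myd88, had signals of 45.3 and 61.3 in controls and 31.6 and 28.5 in EnhDel (-0.70 ± 0.19, limma adjusted p = 0.355). For both the groups lay apart, in opposite directions.

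**Figure D5:**
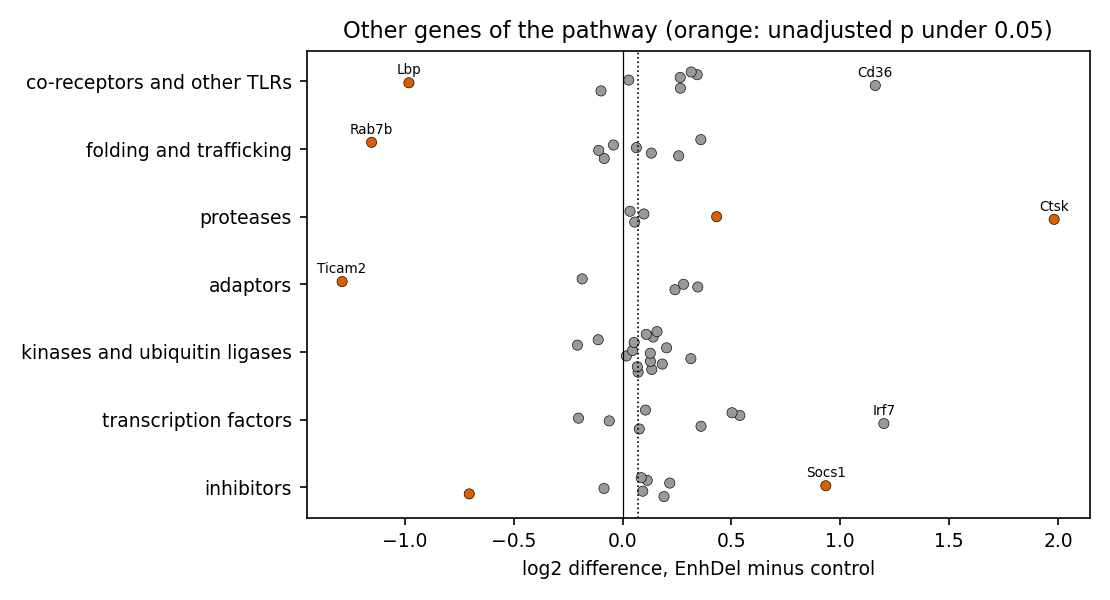
Log2 difference, EnhDel minus control, of the 58 tested pathway genes by role (rows), with genes at an unadjusted limma p under 0.05 in orange and the median of all genes dotted. Most points lie within 0.5 of 0, and the named points at the edges include Ticam2 (-1.29), Rab7b (-1.15) and Irf7 (1.20); the Ctsk point is a fitted value that rests on control signals at background.

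For Tlr1 and Tlr7, the tested members with the smallest p, the genes of most similar profile over the 4 arrays were sought among 13274 genes by the root mean square distance of centred log2 levels. Nearest to Tlr1 were C2, at 0.0474, Hesx1, at 0.0497, and Gria4, at 0.0512, and 18 genes lay within 0.1 of Tlr1. Hesx1 and Gria4 were not well above background on all 4 arrays, so their distances rest in part on signals that are only upper bounds. Nearest to Tlr7 were Uncx, at 0.00927, Rhpn2, at 0.012, and Prodh2, at 0.0143, and 271 genes lay within 0.1. With 4 arrays such likeness is a description of these samples, and it was not kept throughout in the authors' deposited values. There C2, Hesx1 and Gria4 differed by 0.45, 0.2 and 0.05, beside 0.35 for Tlr1. Uncx, Rhpn2 and Prodh2 differed by 0.05, 0.2 and 0, beside 0.5 for Tlr7.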

How the data were processed

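RNA of 2 control and 2 EnhDel samples was read on 1-colour (Cy3) Agilent arrays, all on 1 slide and in 1 scan. The authors' deposited scanner output, made with Agilent Feature Extraction 10.7.3.1 per the file headers, holds the intensity of 44397 spots per array, with a background-corrected processed signal and probe positions in mm9. The authors also deposited a log2 table with 1 decimal and equal column medians of 6.5, made by steps not given in the sources used here. Over 24810 genes each column correlated with its own array's log2 median signal (0.99975 to 0.99993), so its scale is log2 while its normalization stays unknown.

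Control spots and outlier-flagged spots (126 to 162 per array) were left out, spots of a probe were averaged, and log2 of the processed signal minus the array's 75th percentile was used. Of 39429 probes, 26581 matched a RefSeq accession (GRCm38.p6, names only) and 2892 took an updated symbol. The probe of highest mean signal stood for a gene. Tests took genes well above background on each array of the control group, the EnhDel group or both (19394 genes, 24286 probes). The comparison used limma 3.58.1 (lmFit, eBayes) under R 4.3.3, with Benjamini-Hochberg adjustment over all tested genes and a threshold of 0.05. The procedure was tested on simulated data. Precision is limited by the small number of arrays.

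The members, the gene lists and the alternatives (background correction, normalization, filter, probe choice, replicate block, variance model, deposited values, each array left out) were chosen with earlier results of these data known. Besides all 10 members, the text names pathway genes at least 2-fold apart with an unadjusted p under 0.05, the gene of smallest p in each role, and the 3 nearest profiles of the 2 members with the smallest p. Other pathway genes were named after their values were seen.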

Additional observations from a re-analysis of the deposited data

How the results depend on the processing

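No member passed the threshold under any alternative, and the lowest adjusted p-values were 0.0517 for Tlr9 and 0.0601 for Tlr7. Tlr7, Tlr9, Tlr1 and Tlr6 kept their sign throughout (0.26 to 0.84, 0.15 to 0.71, 0.35 to 1.27 and 0.06 to 0.60). The unadjusted limma p also rose past 0.05 for Tlr7 with no filter (0.0692) and normexp (0.544), and for Tlr1 with normexp (0.110) and the deposited values (0.142); with 1 array left out it ran from 0.0116 to 0.295 and from 0.0221 to 0.209. With normexp at an offset of 50, the surface median became 1.01 and the endosomal minus surface difference -0.73, and signs turned for Tlr2 (0.013), Tlr5 (1.04), Unc93b1 (-0.16), Ticam2 (0.93), Rab7b (0.11) and Lbp (0.96); once 6 spots of aberrant local background were repaired, the surface median was 0.08 and the class difference 0.37. The surface median was -0.053 with quantile normalization, -0.091 with median scaling, -0.084 with cyclic loess and -0.05 with the deposited values, and Tlr4 turned to -0.12, -0.091, -0.20 and -0.05 in that order. Median scaling moved the median of all genes from 0.07 to -0.13, turned Unc93b1 to -0.059, let Tlr9 overlap and changed the shares of genes whose groups lay apart from 28.6% higher and 15.5% lower to 13.1% and 35%.

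Genes past the threshold numbered 0 in the main analysis, 23 with median scaling and 2 with the mean of a gene's probes. With 1 array left out, the lone sample being assumed to vary like the other group, they numbered 1 to 2938, the highest without EnhDel replicate 1, and 47 without EnhDel replicate 2. The pathway list then had 0 to 8, the highest again without EnhDel replicate 1. Left-out arrays moved the surface median between 0.013 and 0.24 and the class difference between 0.17 and 0.66. They moved Tlr2 between -0.10 and 0.039, Tlr4 between -0.11 and 0.34 and Unc93b1 between -0.016 and 0.31; signs turned without control replicate 1 (Tlr2, Tlr4), EnhDel replicate 1 (Tlr2, Tlr4) or EnhDel replicate 2 (Unc93b1). The cause of these shifts was not tested.

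Control and EnhDel samples with the same number did not deviate together (correlation -0.02 over genes), and nothing in the labels pairs them. A block on the replicate number cannot move the differences in this balanced design (0.48, 0.11 and 0.36 for the endosomal, surface and class values); with it 0 genes passed, and the unadjusted limma p became 0.0879 for Tlr7 and 0.0254 for Tlr1.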
